A study of Homo sapiens with 2 samples.

Results

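The genes described here encode the aminoacyl-tRNA synthetases and the proteins that hold several of them in one complex. Their splicing was compared between 2 RNA-seq libraries of polyadenylated RNA from HEK293T cells, a human embryonic kidney line that carries the SV40 large T antigen. One library came from control cells, and the other from cells that received amiloride, a diuretic known as a blocker of epithelial sodium channels, at 300 µg/mL for 6 h. Both grew in serum-supplemented medium that was free of antibiotics from the day before, and neither group carried a named allele. The tables hold no expression levels, so the cell line could not be checked against marker genes. Each group was 1 library of 1 cell line, so that no value below has a replicate check and each call separates these libraries rather than the conditions. The deposited tables number the libraries as first and second without naming the condition. A positive difference therefore means higher inclusion in the first numbered library, and it cannot be assigned to amiloride or to control cells.

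Members were the rows whose gene symbol is a single letter followed by ARS, with or without a final 1 or 2, together with EPRS, FARSA, FARSB and the scaffold genes AIMP1, AIMP2 and EEF1E1. Across 5 tables of splicing events 1063 of 159490 rows belonged to 37 such genes, out of 12254 genes listed. They comprised 733 of 113456 skipped-exon events, 315 of 39869 events of mutually exclusive exons, 8 of 2620 alternative 5' splice sites, 6 of 2868 alternative 3' splice sites and 1 of 677 retained introns. The skipped-exon events fell on 363 of 67154 distinct exons. The tables held no row for EEF1E1, PARS2 or MARS2.

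Aminoacyl-tRNA synthetases attach each amino acid to its matching tRNA, and so set which amino acid a codon adds to a protein. Human cells keep separate enzymes for the cytosol and for the mitochondrial matrix, most of them encoded by different nuclear genes, with the suffix 2 marking the mitochondrial form. Several cytosolic enzymes are bound in the multisynthetase complex around AIMP scaffold proteins. The catalytic cores belong to 2 unrelated classes, and those of class I carry the signature motifs called HIGH and KMSKS. Biallelic mutations in genes of the mitochondrial enzymes cause disorders of brain, heart, ear or ovary.

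The exons shown first are those with the largest differences between the libraries and the single called exon of negative difference, since they carry the range of what was measured. An exon was called when any of its events had a false discovery rate (FDR) under 0.1, and it is represented by its event of lowest FDR. The inclusion level is an estimate of the share of transcripts that hold the exon, on a scale of 0 to 1. Each sequence is read 5′ to 3′ on the strand of the gene from GRCh37, with the exon in capitals and the 20 intron bases on either side in lower case.

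AARS2 exon 15, minus strand, chr6:44271023-44271160, 138 bases: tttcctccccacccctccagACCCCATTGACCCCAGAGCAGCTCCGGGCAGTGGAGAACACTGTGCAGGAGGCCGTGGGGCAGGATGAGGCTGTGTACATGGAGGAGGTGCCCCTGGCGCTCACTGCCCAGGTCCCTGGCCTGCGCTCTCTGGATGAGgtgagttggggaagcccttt
CARS2 exon 6, minus strand, chr13:111335398-111335481, 84 bases: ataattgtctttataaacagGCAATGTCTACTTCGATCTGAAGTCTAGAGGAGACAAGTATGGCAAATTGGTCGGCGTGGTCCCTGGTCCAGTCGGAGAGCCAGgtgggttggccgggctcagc
RARS2 exon 6, minus strand, chr6:88258309-88258364, 56 bases: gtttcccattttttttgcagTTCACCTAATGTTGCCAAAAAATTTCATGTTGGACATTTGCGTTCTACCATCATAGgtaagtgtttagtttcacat
RARS2 exon 7, minus strand, chr6:88255334-88255417, 84 bases: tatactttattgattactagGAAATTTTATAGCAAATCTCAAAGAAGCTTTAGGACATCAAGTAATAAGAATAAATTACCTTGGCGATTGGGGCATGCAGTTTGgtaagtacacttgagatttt
RARS2 exon 13, minus strand, chr6:88229898-88229974, 77 bases: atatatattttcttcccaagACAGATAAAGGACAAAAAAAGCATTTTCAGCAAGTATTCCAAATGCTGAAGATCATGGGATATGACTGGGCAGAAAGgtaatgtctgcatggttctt
HARS2 exon 2 in its long form, plus strand, chr5:140073076-140073250, 175 bases: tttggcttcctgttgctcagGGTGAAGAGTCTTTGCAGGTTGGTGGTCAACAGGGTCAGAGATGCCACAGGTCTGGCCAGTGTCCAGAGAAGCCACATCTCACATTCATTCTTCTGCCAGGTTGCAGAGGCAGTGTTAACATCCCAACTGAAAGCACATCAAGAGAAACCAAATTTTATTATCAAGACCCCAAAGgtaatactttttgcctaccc
VARS2 exon 25, plus strand, chr6:30891130-30891282, 153 bases: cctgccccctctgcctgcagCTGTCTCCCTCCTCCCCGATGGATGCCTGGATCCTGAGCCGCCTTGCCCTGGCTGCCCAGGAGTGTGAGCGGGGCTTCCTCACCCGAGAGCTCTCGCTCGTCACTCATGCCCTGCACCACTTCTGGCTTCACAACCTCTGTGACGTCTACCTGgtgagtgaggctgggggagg
FARSB exon between exons 2 and 3, minus strand, chr2:223511520-223511715, 196 bases: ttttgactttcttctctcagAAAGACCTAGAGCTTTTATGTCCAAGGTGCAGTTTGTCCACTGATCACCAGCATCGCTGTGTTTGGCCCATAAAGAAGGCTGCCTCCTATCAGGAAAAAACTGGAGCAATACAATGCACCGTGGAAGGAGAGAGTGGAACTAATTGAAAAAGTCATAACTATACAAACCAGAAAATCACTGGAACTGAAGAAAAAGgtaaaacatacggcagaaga

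All 8 of these exons begin after AG and end before GT. The AARS2, CARS2, VARS2 and both RARS2 exon 6 and 7 sequences are wholly coding in the canonical transcript, as is RARS2 exon 13. Lengths of the AARS2, CARS2 and VARS2 exons and of RARS2 exon 7 are multiples of 3, so that skipping any of them alone keeps the reading frame, whereas RARS2 exons 6 and 13 shift it. In the lowest-FDR events of the AARS2, CARS2 and RARS2 exons several exons drop out together. The frame of those forms was not worked out. The long form of HARS2 exon 2 adds 100 bases upstream of the 75-base exon of the canonical transcript and is wholly coding in 2 of the 4 annotated transcripts that hold it. The FARSB exon matches no annotated transcript by both its ends.

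Among skipped exons, 140 of the 363 member exons were called, or 38.6% (95% Wilson interval 33.7% to 43.7%), in 33 of 37 genes. Over all genes 35.8% of listed exons were called, a share that lies inside this interval. A called exon was found in 7992 of the 11945 genes with a listed skipped exon. Member genes list more exons per gene on average, with 363 in 37 genes against 67154 in 11945. They therefore have more chances of a call, and the count of 33 genes is not read as a trait of the family. By event, 201 of 733 were called, which is 27.4% (24.3% to 30.8%) against 27.5% of all events, and 199 of them were positive, 27.1% of member events against 26.4% of all events. The direction was nearly uniform, with 139 of the 140 called exons higher in the first library, or 38.3% of member exons against 34.2% of all exons called with a positive difference. Positive differences made up 99.3% of the called exons in these genes and 95.7% of those in all genes. The calls in synthetase genes were smaller: the median size of a called difference was 0.0535, compared with 0.116 for all called exons. A called difference of at least 0.1 was found for 46 member exons, 12.7% of those listed, against 19.9% of all exons. At the other end 62 called exons differed by less than 0.05. The intervals cover counting error only, and exons of one gene share its transcripts and reads, so they are not independent.

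**Figure D1:**
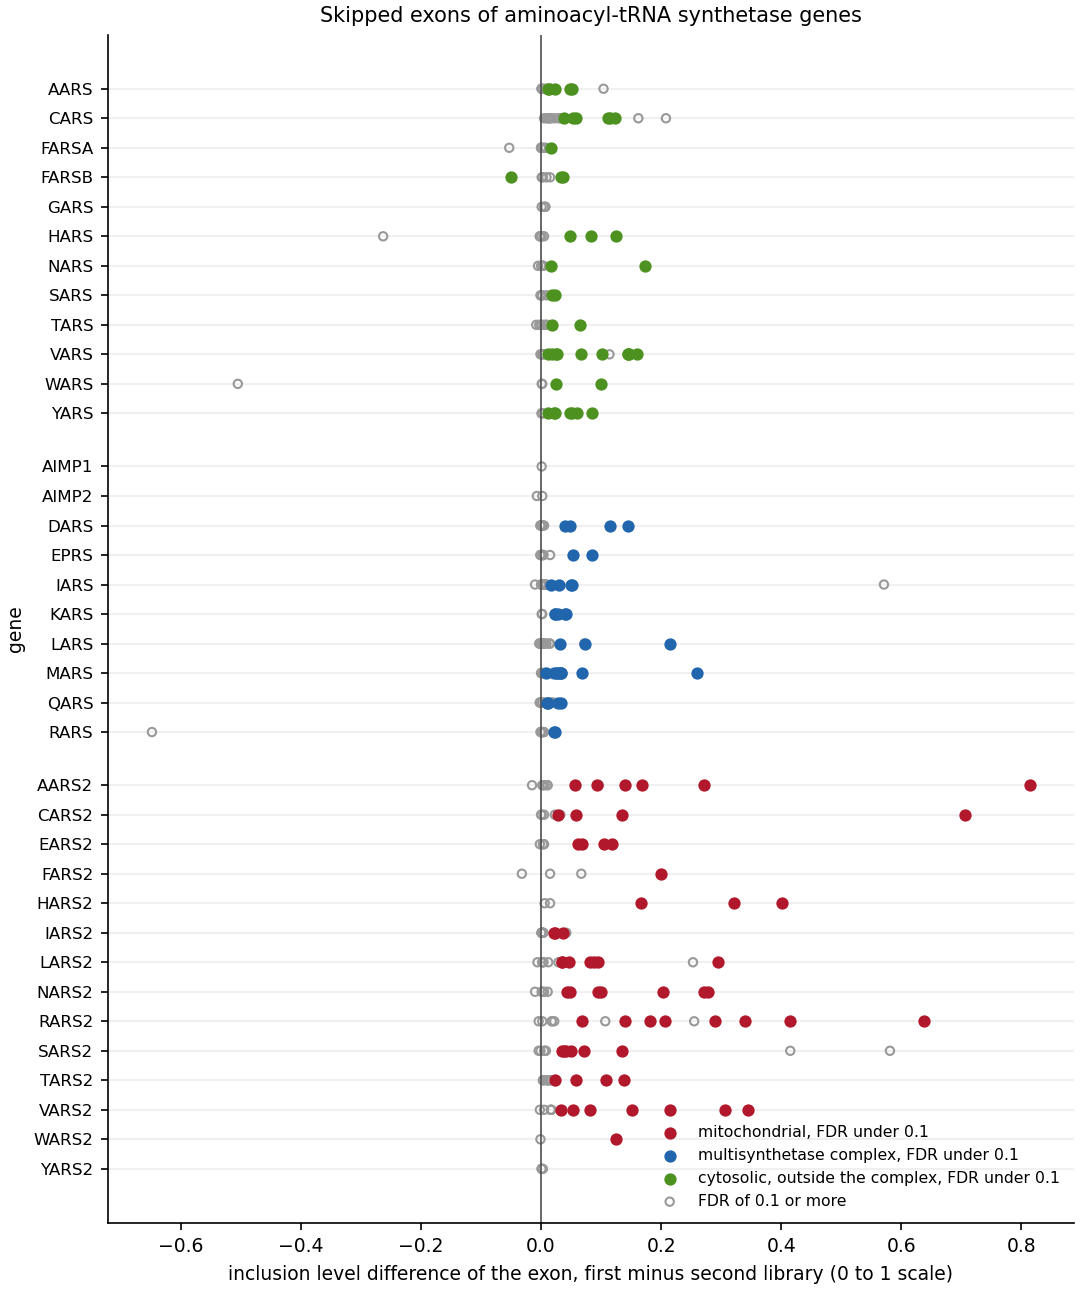
Inclusion level difference (horizontal axis, first minus second library, 0 to 1 scale) of 349 listed exons by gene for 36 genes (vertical axis); filled points are called at an FDR under 0.1 and coloured by group, open points are not. All but 1 of the 137 filled points lie to the right of 0, and the filled points beyond 0.3 are in the mitochondrial genes AARS2, CARS2, HARS2, RARS2 and VARS2.

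The mitochondrial and the cytosolic enzymes differed more in the size of their called differences than in how often they were called. In 15 mitochondrial genes 64 of 149 exons were called, or 43.0% (35.3% to 51.0%), and in 20 cytosolic genes 76 of 211, or 36.0% (29.8% to 42.7%). KARS and GARS, which serve both compartments, were counted as cytosolic. The intervals overlap, and both contain the share of 35.8% over all exons. The median called difference was 0.0975 in mitochondrial and 0.0375 in cytosolic genes. Of the called mitochondrial exons 32, or 50.0%, reached 0.1, against 14 cytosolic ones, or 18.4%. Over all called exons of the table that share was 55.6%. Among all listed exons, called or not, differences of at least 0.1 were found for 25.5% of mitochondrial exons (38), 10.4% of cytosolic exons (22) and 29.0% of all exons. Thus in these shares the mitochondrial genes lay near the table as a whole, while the called differences of the cytosolic genes were smaller. Only 19 called member exons reached 0.2, of which 17 were in 7 mitochondrial genes and 2 in the cytosolic genes LARS and MARS. These were 26.6% of called mitochondrial and 2.63% of called cytosolic exons, against 31.0% of all called exons.

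The contrast was also computed with events of 1 kind of flanking exons. When only events between the 2 neighbouring exons of the canonical transcript were kept, 276 member exons remained and 87 were called, or 31.5%, against 30.9% of 47744 exons over all genes. All 87 differences were positive, as were 96.5% of the 14766 called exons over all genes. The called share was then 33.3% for mitochondrial (37 of 111) and 30.9% for cytosolic genes (50 of 162). The median difference over these exons, called or not, was 0.008 and 0.005, respectively, and the same exons had medians of 0.029 and 0.009 when each was represented by the event of lowest FDR among all its events. Among called exons the medians were 0.063 and 0.026, compared with 0.095 and 0.041 for those called under all events. Over all genes the medians between neighbours were 0.012 for listed and 0.088 for called exons, above those of both groups. Called differences of at least 0.1 were found for 13 of the 111 mitochondrial and 3 of the 162 cytosolic exons. The share over all genes was not computed for this size between neighbours. How many reads stand behind an event was not used here, and its part in the difference between the groups was not tested.

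For 13 amino acids both a cytosolic and a mitochondrial gene were listed. The median difference over all listed exons was higher in the mitochondrial gene of 10 of these pairs, with cysteine, isoleucine and tyrosine as the exceptions. In 10 of the 12 pairs in which both genes had a called exon, the largest called difference was in the mitochondrial gene, and isoleucine was among the exceptions. The histidine pair stood furthest apart in its medians, with 0.166 over 5 exons of HARS2 and 0.001 over 9 exons of HARS. The 5 HARS2 exons count exon 2 in a long and a short form, and the value of the short form is this median. For arginine the medians were 0.14 over 15 exons of RARS2 and 0.001 over 10 exons of RARS. Valine differed little, with 0.0435 in VARS2 and 0.026 in VARS. The pairs are given as a description and were not tested.

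RARS2, the mitochondrial arginyl-tRNA synthetase, whose mutations cause pontocerebellar hypoplasia, had 8 called exons of 15 listed. Exons 6 to 11 were called without a gap, with differences from 0.069 at exon 11 to 0.637 at exon 7. Of this run only exon 11 was called between neighbours. Exons 13 and 14 followed with 0.414 (FDR listed as 0) and 0.289. The large values belonged to events that join distant exons. For exon 7 the event between exons 5 and 9 differed by 0.637 (FDR 6.7e-05) and that between exons 5 and 8 by 0.135 (FDR 8.9e-05), whereas those that start from exon 6 differed by 0.025 and 0.006 and were not called. Exon 6 behaved in the same manner, with 0.339 and 0.186 for events that end at exons 9 and 8 and 0.008, not called, for the event that ends at the neighbouring exon 7. All 3 junctions that leave out exon 6 are annotated. Exon 6 also encodes the match to the HIGH signature of class I enzymes in RARS2, at residue 141 of 578. Exon 13 differed by 0.414 between exons 12 and 15 and by 0.004, not called, between exons 12 and 14.

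The 2 largest differences among called member exons had the same structure. AARS2, the mitochondrial alanyl-tRNA synthetase, differed by 0.814 at exon 15 in the event between exons 13 and 17 (FDR 4.4e-06). The same exon gave 0.131 between exons 13 and 18 and 0.007 between exons 14 and 17, neither of them called. Its neighbours, exon 14 at 0.271 and exon 16 at 0.093, were called as well, exon 14 in no event between its own neighbours. CARS2, for mitochondrial cysteine, differed by 0.706 at exon 6 in the event between exons 3 and 8 (FDR 0.00049) and by 0.012, not called, in the event between exons 3 and 7. Several exons drop out together in the skipping form of such an event. Its inclusion form was also credited with reads on the body of the exon, which the other events of that exon share. Over the members, 65 called exons were represented by events with a flank other than a neighbour, with a median difference of 0.084, and 72 by events between neighbours, with a median of 0.044.

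**Figure D2:**
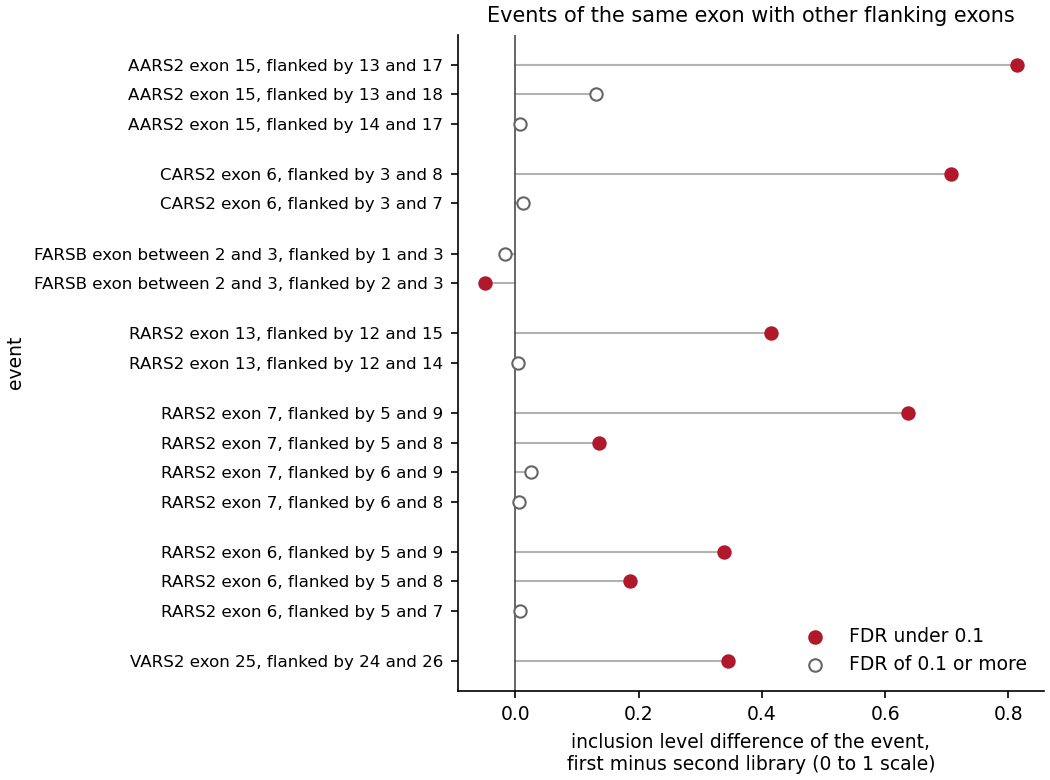
Inclusion level difference (horizontal axis, first minus second library) of every listed event of 7 exons shown by sequence, with the numbers of the flanking exons at left; filled points have an FDR under 0.1. AARS2 exon 15 ranged from 0.007 to 0.814 and RARS2 exon 7 from 0.006 to 0.637 with the choice of flanking exons, while VARS2 exon 25 had 1 event.

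Large differences between neighbouring exons were seen in other mitochondrial genes. VARS2, for valine, had 7 called exons of 12 listed, each with 1 event, led by exon 25 at 0.345 and exon 13 at 0.307, both with an FDR listed as 0. Exon 17 differed by 0.215 and exon 27 by 0.152. All 7 overlap exons of ENSG00000288473, annotated on the same strand, and reads of both genes cannot be told apart. HARS2, for histidine, was called in 3 of 5 exons. Its exon 2 appeared in a long form with a difference of 0.402 (FDR 1.1e-12) and in the canonical 75-base form with 0.166 (FDR 1.4e-13), both between exons 1 and 3. The choice between the 2 acceptor sites themselves was listed as an alternative 3' splice site event with a difference of 0.008 and was not called (FDR 0.65). HARS2 exon 7, of 99 bases, differed by 0.322.

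NARS2, the mitochondrial asparaginyl-tRNA synthetase, was called in 7 of 12 exons. Exon 13 (chr11:78152137-78152163), only 27 bases long and frame-keeping, differed by 0.278 with both of its events called. Exons 5 to 10 formed an unbroken run from 0.043 at exon 10 to 0.271 at exon 9, which is 38 bases long. Of this run, exons 5, 6, 7 and 9 were called between neighbours. LARS2, for leucine, whose mutations cause ovarian failure with deafness, had 7 called exons of 15, with the largest difference at exon 21 (chr3:45583321-45583448), 0.295 between its neighbours. The remaining calls in LARS2 lay between 0.035 and 0.095.

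**Figure D3:**
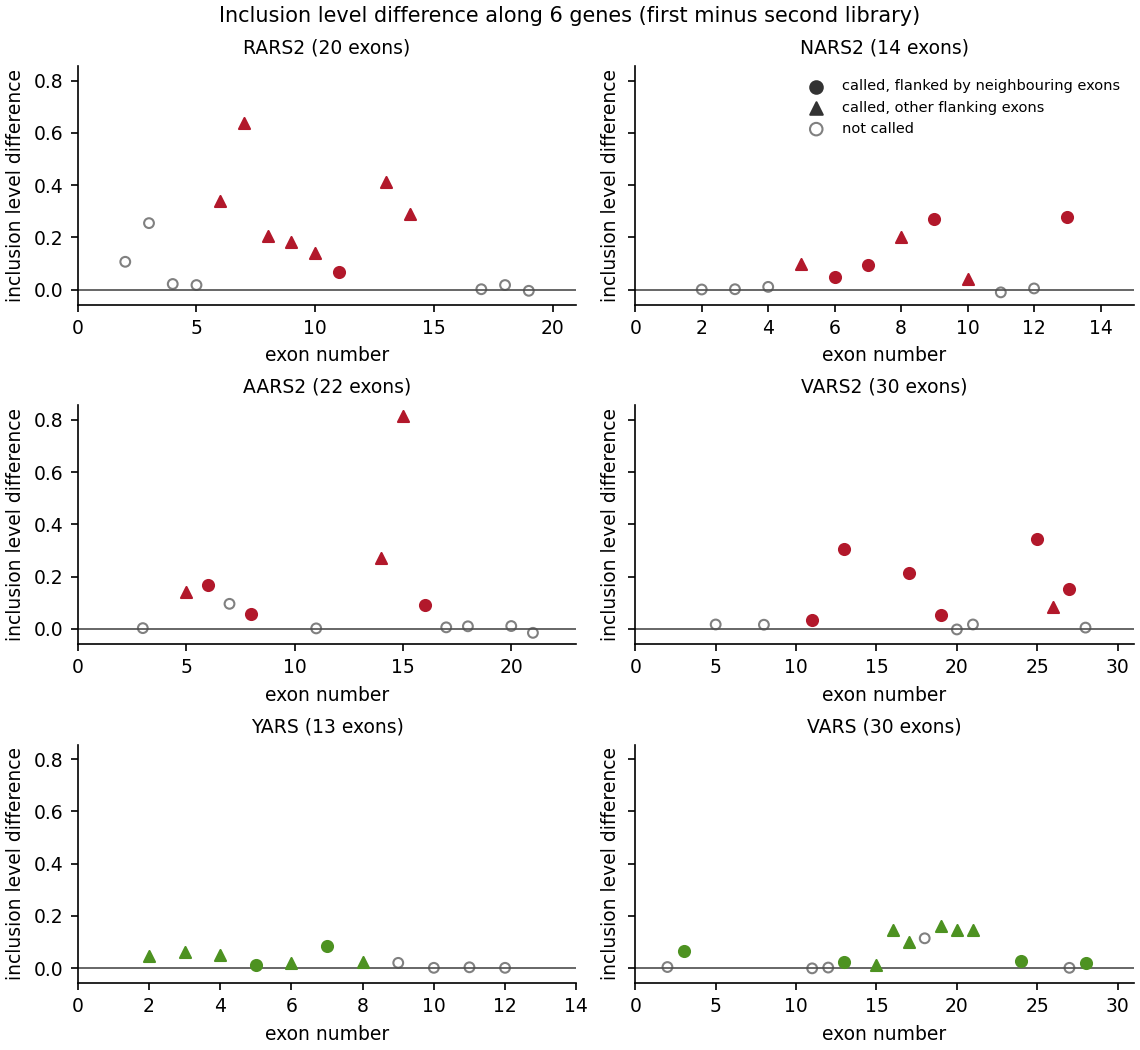
Inclusion level difference (vertical axis, first minus second library) against exon number (horizontal axis) in 4 mitochondrial genes (red) and 2 cytosolic ones (green); circles are called exons flanked by their neighbours, triangles called exons with other flanks, open circles exons not called. Counting events of any flanks, called exons were consecutive from 6 to 11 in RARS2, from 5 to 10 in NARS2 and from 2 to 8 in YARS.

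Smaller differences marked the other mitochondrial genes. FARS2, for phenylalanine, differed by 0.199 at exon 3 (chr6:5404775-5404934), its only called exon of 4. TARS2, for threonine, reached 0.138 at exon 15 (chr1:150477108-150477209), and SARS2, for serine, 0.135 at exon 10 (chr19:39408734-39408779). No event of SARS2 exon 10 between its neighbours was called. Each of the 6 called SARS2 exons overlaps an exon of ENSG00000269547 on the same strand, so that the SARS2 values have the same limit as those of VARS2. WARS2, for tryptophan, differed by 0.125 at exon 4 (chr1:119584887-119584972), and EARS2, for glutamate, by 0.118 at exon 6 (chr16:23541065-23541218) within a run of called exons from 4 to 7. Between its neighbours EARS2 exon 6 differed by 0.046. IARS2, for isoleucine, reached 0.036 at exon 13 (chr1:220298579-220298681). YARS2, for tyrosine, had no called exon among 3, and its largest difference was 0.003.

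Among the 12 cytosolic genes outside the multisynthetase complex 43 of 112 exons were called, or 38.4% (29.9% to 47.6%) against 35.8% of all exons, with a median called difference of 0.049. The largest was 0.173 at exon 2 of NARS, for asparagine (chr18:55287801-55287883), between exons 1 and 3. VARS, for valine, had the most called exons of any member, 10 of 15, with 0.16 at exon 19 (chr6:31749624-31749729). Around it exons 15 to 17 and 19 to 21 were called, with values from 0.011 at exon 15 to 0.146 at exon 16, while exon 18 was listed at 0.114 and not called. Between its neighbours VARS exon 16 differed by 0.016, and for exon 19 no event between neighbours was called. HARS, for histidine, differed by 0.124 at exon 3 (chr5:140062685-140062804), a frame-keeping exon of 120 bases with all 3 events called. CARS, for cysteine, differed by 0.123 at exon 14 (chr11:3039638-3039741), where no event between neighbours was called. WARS, the tryptophan enzyme that interferon induces, differed by 0.099 at exon 2 (chr14:100835424-100835595), which is partly coding. Between its neighbours WARS exon 2 differed by 0.04.

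YARS, for tyrosine, whose fragments are secreted as cytokines, was called at every exon from 2 to 8, but the largest of these 7 differences was 0.085, at exon 7 (chr1:33252541-33252676). Its 11 listed exons had 68 events, and a call in any of them sufficed. Between neighbours only exons 4, 5 and 7 were called, at 0.01, 0.011 and 0.085. TARS, for threonine, reached 0.065 at exon 8 (chr5:33456254-33456332), AARS, for alanine, 0.051 at exon 17 (chr16:70288524-70288637), and SARS, for serine, 0.024 at exon 2 (chr1:109766600-109766670). The 2 subunits of phenylalanyl-tRNA synthetase differed little. FARSA, the catalytic subunit, had 1 called exon of 8, exon 4 (chr19:13041037-13041155), at 0.016. In FARSB, its partner, 3 of 7 exons were called, and the exon shown above gave the only negative difference among called member exons, -0.05 between exons 2 and 3 (FDR listed as 0), with -0.017, not called, between exons 1 and 3. The other FARSB calls were positive and reached 0.037. GARS, for glycine, which supplies both compartments from 1 gene, had 4 listed exons between 0.001 and 0.007 and no call.

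Genes of the multisynthetase complex had the lowest median among called exons. Of 102 exons in 10 genes 33 were called, or 32.4% (24.1% to 41.9%) against 35.8% of all exons, all of them positive, with a median of 0.034, and 4 reached 0.1. MARS, for methionine, carried 9 calls of 17 exons. At exon 4 (chr12:57883207-57883341), a 135-base frame-keeping exon, its event of lowest FDR, between exons 2 and 6, differed by 0.259 (FDR 0.014), and 5 of the 7 events of this exon were not called. The other MARS calls lay between 0.008 and 0.069. LARS, the leucine enzyme that also serves as a leucine sensor, differed by 0.215 at exon 24 (chr5:145510582-145510672), which has 1 event, between its neighbours. DARS, for aspartate, differed by 0.145 at exon 3 (chr2:136736844-136736936) and by 0.114 at exon 2. Both values came from events with a flank other than a neighbour. Between their neighbours exons 3 and 2 of DARS differed by 0.009 and 0.019.

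Called exons of the remaining enzymes of the complex stayed below 0.1. EPRS, a single protein that charges both glutamate and proline tRNAs, reached 0.085 at exon 23 (chr1:220156114-220156186), and IARS, for isoleucine, 0.052 at exon 5 (chr9:95048818-95048900). KARS makes the lysine enzyme of both cytosol and mitochondria. Of its 7 exons 5 were called, and the largest difference was 0.041, at exon 7 (chr16:75668071-75668190). QARS, for glutamine, reached 0.034 at exon 17 (chr3:49136777-49136864), and RARS, for arginine, 0.023 at exon 11 (chr5:167933727-167933836). No event of QARS exon 17 between its neighbours was called. The scaffold genes AIMP1 and AIMP2 had 3 listed exons, between -0.007 and 0.002, and none was called.

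By enzyme class the intervals of the called shares overlapped. Class I genes had 81 of 196 exons called, or 41.3% (34.7% to 48.3%), and class II genes 57 of 153, or 37.3% (30.0% to 45.1%), and both intervals contain the 35.8% of all exons. EPRS, which joins a class I to a class II enzyme, was counted in neither. To see where the class I signatures lie, the coding sequences of 18 genes with a class I core were translated and searched for the letters H, any residue, G and H, and for K, any residue, S, K and S. The first pattern was found in 14 genes and on 17 exons, of which 3 were called, 8 were not and 6 were not listed. Called were exon 3 of IARS at 0.03, exon 3 of LARS at 0.032 and exon 6 of RARS2 at 0.339. Of the 11 exons with the second pattern, found in 9 genes, only exon 16 of IARS2 was called, at 0.024, while 3 were not called and 7 were not listed. These counts are too small to be read against the 35.8% of all exons that were called. A match is a run of letters. The first pattern had 2 matches in CARS and in CARS2, and the second pattern had 2 in IARS2.

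Called and uncalled member exons were also compared in features of their sequence and annotation. Called exons had a median length of 103 bases, compared with 114 for the 223 uncalled ones, and a length that is a multiple of 3 in 32.9% against 46.6%. Over all genes these were 102 and 123 bases and 36.3% and 40.2%. Splice sites were scored by how closely their bases resemble those of all annotated sites, in bits, over 9 bases for the 5' splice site and 23 for the 3' splice site. Mean 5' scores were 7.8 in called and 8.16 in uncalled member exons, with standard deviations of 3.09 and 2.64, and mean 3' scores 8.96 and 9.69, with standard deviations of 3.27 and 2.92. The corresponding means over all genes were 7.6 and 7.86 for 5' sites and 8.94 and 9.19 for 3' sites. Thus the differences run the same way as in the table as a whole and are small beside the spread among exons.

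An annotated transcript contains the junction that skips the exon for 30.7% of called and 13.5% of uncalled member exons, against 27.4% and 17.5% over all genes. Called exons had more chances to be called, with 2.71 events per exon on average compared with 1.58, and 2.11 compared with 1.46 over all genes. Of the 140 called exons, 60 were called in every event and 80 had an event that was not called. Most of them lay in the coding sequence of the canonical transcript: 137 matched an exon of the canonical transcript by both ends, 135 were wholly coding and 44 of the coding ones kept the frame.

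The FDR and the size of a difference did not rank exons alike. Just inside the threshold lay IARS2 exon 16 (FDR 0.074, difference 0.024), CARS exon 3 (FDR 0.078, difference 0.058) and MARS exon 14 (FDR 0.083, difference 0.008). Just outside were SARS2 exon 9 (FDR 0.103, difference 0.415), CARS2 exon 10 (FDR 0.104, difference 0.023) and a 136-base form of CARS exon 4 that is longer than the canonical exon (FDR 0.123, difference 0.036). Several uncalled exons had larger differences than most called ones, among them RARS exon 9 at -0.648 (FDR 0.45), IARS exon 22 at 0.571 (FDR 0.83) and WARS exon 5 at -0.505 (FDR 0.68), each in an event with a flank other than a neighbour.

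Mutually exclusive exon events compare transcripts that hold one of 2 exons but not the other. Of 315 such events in 32 member genes 144 were called, or 45.7% (40.3% to 51.2%), against 39.3% of all events in that table. A called positive difference, which here means more of the form with the exon nearer the 5′ end in the first library, was found in 110 events, 34.9% of those listed against 22.3% over all genes, and 34 were negative. NARS2 and YARS alone held 27 and 24 of the 144 calls, out of 31 and 44 of the 315 listed events. The shares without these genes were not computed, so the higher shares are not read as a trait of the family. Mutually exclusive events reuse the same exons many times, and the interval takes no account of it. The median size of a called difference was 0.0505, compared with 0.079 over all genes, and 31 events reached 0.1, 9.84% of those listed against 14.8%. In 62 called events both exons were also called as skipped exons, in 49 one of them was, and in 33 neither. The 2 exons are adjacent in the canonical transcript in 89 of the 144. An exon of such a pair gives its reads to both kinds of event, so the skipped-exon and mutually exclusive values of a gene are not independent.

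NARS2 and YARS held the most called events. In NARS2 27 of 31 events were called, led by exons 9 and 10, whose event differed by 0.454 (FDR listed as 0), the largest value in this table among members. Both exons belong to its run of called skipped exons, where exon 9 differed by 0.271 and exon 10 by 0.043. In YARS 24 of 44 events were called, all of them positive, with 0.129 for exons 5 and 6. Where several events of a gene tied at an FDR listed as 0, as in NARS2, YARS, VARS and AARS, the one of largest difference is given. The event of lowest FDR was 0.115 in HARS (exons 3 and 4), 0.11 in VARS (exons 17 and 18), 0.093 in AARS (exons 15 and 16), and 0.051 in FARSB, where it set exon 2 against the exon of negative difference shown above. It was negative in LARS2, at -0.158 for exons 20 and 21, in MARS, at -0.059 for exons 4 and 5, and also in TARS2 at -0.034 and RARS at -0.016. In the first of these the downstream exon 21 is the LARS2 exon with the largest skipped-exon difference.

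**Figure D4:**
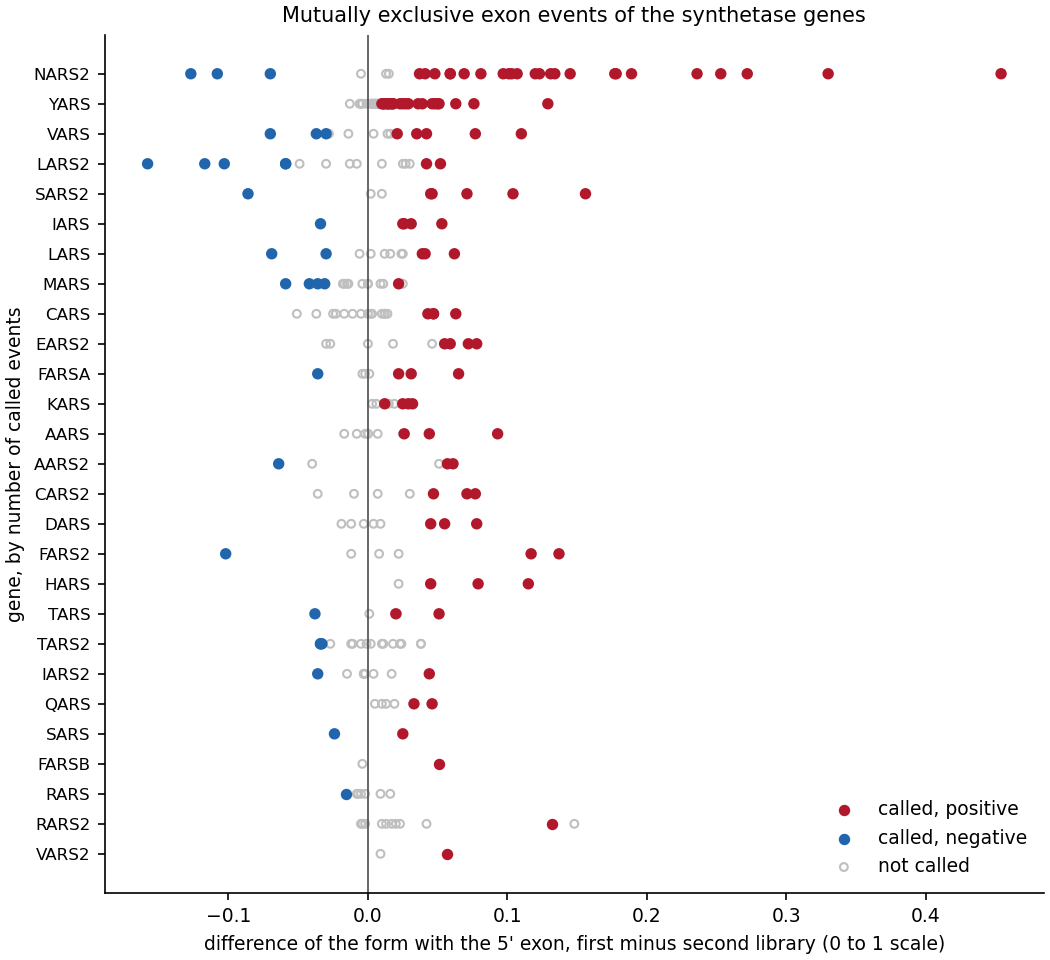
Difference in the share of the form with the 5′ exon (horizontal axis, first minus second library, 0 to 1 scale) for each mutually exclusive exon event of 27 member genes with a called event (vertical axis); red and blue points are called positive and negative events, open points are not called. NARS2 reaches 0.454 to the right and LARS2 -0.158 to the left.

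In the other genes named here for a called event the event of lowest FDR was positive. It was 0.137 in FARS2 (exons 3 and 4), 0.132 in RARS2 (exons 4 and 5) and 0.104 in SARS2 (exons 11 and 12). Values between 0.05 and 0.1 were found in DARS at 0.078, CARS2 at 0.077, FARSA at 0.065, CARS at 0.063, AARS2 at 0.061, EARS2 at 0.059, VARS2 at 0.057, IARS at 0.053 and TARS at 0.051. QARS at 0.046, IARS2 at 0.044, LARS at 0.039, KARS at 0.032 and SARS at 0.025 were lower. AIMP2, EPRS, NARS and YARS2 had events in this table but none was called.

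The remaining tables held few member events, and 1 was called in each. Of 8 alternative 5' splice site events, against 28.2% called over all genes, the call was in exon 5 of HARS, where 60 coding, frame-keeping bases (chr5:140058587-140058646) were included more in the first library by 0.056 (FDR 3.7e-09). A second event of the same stretch, with another flanking exon, differed by 0.022 and was not called. The 2 competing donor sites are printed below as 3 exon and 6 intron bases, the exon part first, since the site that ends the longer exon has the lower score, 4.72 against 7.19.

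HARS exon 5, long form: TGTGTGAGT
HARS exon 5, short form: AAGGTATAT

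Of 6 alternative 3' splice site events, against 23.0% called over all genes, the call was at the last exon of WARS2, where 29 bases (chr1:119575983-119576011) that are not part of the canonical transcript differed by -0.277 (FDR listed as 0), so that the longer form was lower in the first library. The acceptor sites follow as 20 intron and 3 exon bases. The site of the longer form lacks the AG that nearly all introns end with and scored -4.48, compared with 6.22 for the site of the canonical exon, and both junctions are annotated.

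WARS2 last exon, long form: TTGTTTTGTTTTTGTTTTGGGTA
WARS2 last exon, short form: TGTTGGTGTTTTTAACCTAGCAT

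The only retained intron event listed was called, in a table where 48.2% of events were. It concerned 93 non-coding bases within the last of 9 exons of EARS2 (chr16:23534739-23534831), whose retention was higher in the first library by 0.35 (FDR listed as 0).

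Genes that, apart from TARSL2, act before or after tRNA charging served as a comparison by function. In a list of 33 genes with listed exons 68 of 189 exons were called, or 36.0% (29.5% to 43.0%), 65 of them positive, near the 35.8% of all exons. The list of elongation factors, among them those that carry charged tRNAs to the ribosome or move them through it, had 22 of 73 called (30.1%). It also counts GFM2, described below. Accessory enzymes of charging had 19 of 54 (35.2%), and the enzymes that splice tRNAs or trim their ends 27 of 62 (43.5%). The accessory list includes TARSL2, with 4 of 8 exons called. It is a threonyl-tRNA synthetase by name, whose symbol the rule for members does not take. The genes with the most calls were picked from their values: ELAC2, which cuts the 3′ trailer of tRNA precursors, had 9 of 13 exons called, the largest at 0.495, and GFM2, a mitochondrial factor of ribosome recycling, had 9 of 17, the largest at 0.233. No exon of EEF1A1, EEF1G or EEF2 was called, out of 3, 4 and 10.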

How the data were processed

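Polyadenylated RNA of HEK293T cells was sequenced as read pairs in 1 control and 1 amiloride library. The submitters' processing notes name STAR 2.5.1 and hg19 or GRCh37; the rMATS version and settings are not given in the sources used here. The authors ran rMATS on both libraries and deposited, per event, the difference in inclusion level (treated here as a score) with its p-value and FDR. The deposited FDR equals the Benjamini-Hochberg adjustment of the deposited p-value over each of the 5 tables within 5.0e-13. The deposited effective lengths of the forms (other values) differ by the exon's length in all 733 member skipped-exon events, so reads on exon bodies were counted. The 30 columns of reads or inclusion levels per library over these tables, whose condition is not named, were not used, and depth per library is unknown.

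Events were joined by exon. Exons were numbered on canonical transcripts of GENCODE release 44 lifted to GRCh37; 19 member symbols matched directly and 18 through RefSeq synonyms. Site scores are log2 ratios over 300873 donor and 300290 acceptor sites, with a pseudocount of 0.5. Each member gene with a called exon is named with its largest called difference, except for 1 gene that is counted in the totals but not reported here; for other tables, with its event of lowest FDR; at most 8 exons are shown by sequence. Members and lists were chosen with earlier results of these data known. Scripts were tested on simulated data. Python 3.11.15, pandas 2.3.3, scipy 1.17.1 and pysam 0.24.0 were used.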

Additional observations from a re-analysis of the deposited data

How the results depend on the processing

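No paired analysis was possible because control and amiloride cells gave 1 library each, and leaving out a library leaves no comparison. With 63 alternatives over 11 counts, 39 stayed within 1.5 times of the count reported, and 24 did not. Neither a stricter FDR nor leaving out the gene of most calls, nor exons outside AG and GT, moved a count that far. Leaving out a gene or exons was tried for counts of exons, not of events. A minimum difference of 0.1 in size left 46 called exons (46 positive), of which 14 were cytosolic, 32 mitochondrial and 4 of the multisynthetase complex, as well as 33 exons of other tRNA genes, 61 skipped-exon events, 31 mutually exclusive exon events and 0 alternative 5' splice site events. With this minimum the mitochondrial count exceeds the cytosolic one, the reverse of the order without it (64 and 76). When every event of an exon had to pass, 60 exons (60 positive) remained, 35 cytosolic, 25 mitochondrial, 15 of the complex and 36 of other tRNA genes. Of the 185 member exons with exactly 1 event, 47 (47 positive) were called, 28 cytosolic, 19 mitochondrial and 12 of the complex. For other tRNA genes 25 such exons were called. With events between neighbouring canonical exons, an alternative chosen after seeing the data, 87 of 276 were called, 50 of 162 cytosolic and 37 of 111 mitochondrial. Without exons that overlap another gene, also chosen after seeing the data, 126 were called, 76 cytosolic and 50 mitochondrial. Fewer exons or events enter each of the alternatives above, by construction. Shares over all genes were computed only for the minimum difference and for neighbouring exons. The other counts are therefore not read against all genes. The depth behind single events was not used, and limits which small differences could be called.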
